A study of Mus musculus with 2 samples.

Results

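The fibroblast growth factor (Fgf) system of the newborn mouse kidney is described here through 36 genes: 18 secreted ligands, 4 intracellular Fgf proteins, the 4 receptor tyrosine kinases Fgfr1 to Fgfr4, the decoy receptor Fgfrl1, the co-receptor Klb, 2 Fgf-binding proteins, and 3 Sprouty and 3 Spred inhibitors. They were chosen by symbol, as the genes of these families in both deposited gene tables, save Spry3, whose identifier was not matched and which was not analysed here. They make up 36 of the 43346 Ensembl genes measured and of the 21474 protein-coding ones. The samples were whole kidneys of B6NCrl mice at age 0 day, profiled by total RNA-seq. Each library came from both kidneys of 1 pup, the pups shared a mother, and their sex was not recorded, so there was 1 group of n = 2 littermates and no treatment or genotype to compare. The labels name separate pups but give both the same donor identifier; they were treated as separate animals, on which every n = 2 rests. Levels are therefore compared between genes, with the difference between the pups as the error, and no p-value is given, since 2 pups leave 1 residual degree of freedom.

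Secreted Fgf ligands bind heparan sulfate chains and receptor tyrosine kinases on nearby cells, and receptor activation passes through the adaptor Frs2 to the Ras and MAP kinase cascade. Sprouty and Spred proteins dampen that cascade, while a small endocrine subfamily of ligands travels in the blood and needs a klotho co-receptor. In the developing kidney Fgf9 and Fgf20 are known to keep nephron progenitors, Fgf8 is needed for early nephrons to form, Fgf7 and Fgf10 act on the ureteric bud through Fgfr2, and Spry1 restrains branching of the bud.

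The libraries held 41584961 and 48823952 expected counts, the estimated reads per feature summed over all features. Levels are in TPM, transcripts scaled to a fixed library total, which corrects for length and can be compared between genes. A gene was called detected at 1 TPM or more in both pups. Marker lists of 7 kidney cell types (nephron progenitor, ureteric bud, stroma, podocyte, proximal tubule, loop of Henle and endothelium) had all their genes detected, from Nphs1 at 3.47 and 3.34 TPM to Col3a1 at 560.4 and 507 TPM. Of other tissues, 0 of 4 adrenal markers, 1 of 3 skeletal muscle markers, 2 of 3 nerve markers and 3 of 3 liver markers were detected. The summed TPM of these lists in pups 1 and 2 was 1.26 and 1.39 for adrenal, 2.68 and 2.22 for muscle, 15.6 and 12.6 for nerve, and 116 and 102 for liver, most of it Afp. The part of such cells in the levels below was not tested. In whole tissue, fewer cells of a type and less RNA per cell cannot be told apart.

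Of the 36 genes, 19 were detected (52.8%), against 61.5% of protein-coding genes and 33.9% of all Ensembl genes. The median level of the 36 was 1.49 TPM in pup 1 and 1.34 in pup 2, and that of protein-coding genes 4.81 and 4.62. The set was therefore split: all 4 receptors, Fgfrl1, both binding proteins and all 6 Sprouty and Spred genes were detected, but only 5 of 18 secreted ligands and 1 of 4 intracellular Fgfs. As deposited, Spry2 and Fgfr2 led the set at 71.6 ± 1.54 and 70.6 ± 6.99 TPM (SD, n = 2), and their values overlapped. Without a transcript that starts in another gene, described with the receptors, Fgfr2 stood at 45.7 ± 5.66 TPM. Fgf6, Fgf22 and Fgf23 had no expected count in either pup. Nearest the detection level, Spred3 had 1.40 and 1.06 TPM and Fgf13 1.57 and 1.66, while Fgf12 missed it with 0.93 and 1.05.

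**Figure D1:**
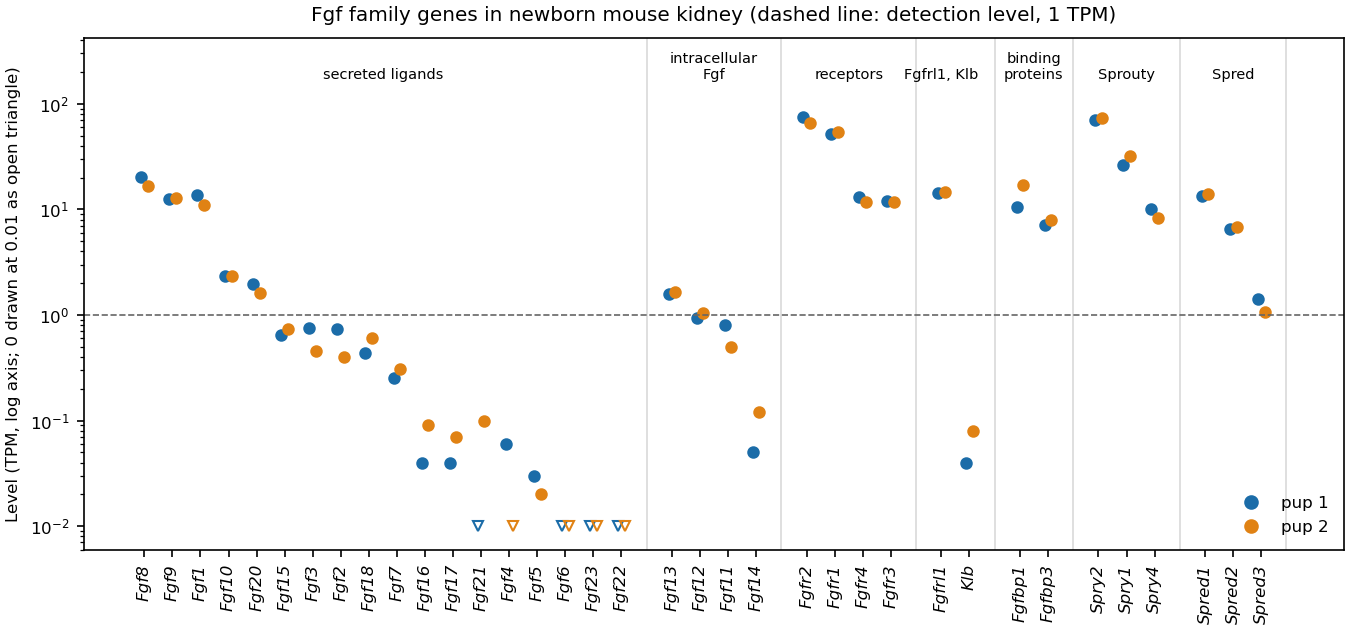
Level of each of the 36 genes in each pup, in TPM on a log axis, grouped by role; points are single pups, open triangles stand for 0 and the dashed line is the detection level of 1 TPM. Receptors and inhibitors lie above the line except Klb, while 13 of 18 secreted ligands have at least 1 pup below it.

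Among the secreted ligands, 3 genes supplied most of the transcripts. Fgf8 had 20.2 TPM in pup 1 and 16.8 in pup 2, Fgf9 had 12.6 and 12.9, and Fgf1, an unusual ligand that lacks a signal peptide and binds all Fgf receptors, had 13.5 and 10.9. Fgf8 was the highest in both pups, whereas the values of Fgf9 and Fgf1 overlapped. Out of a summed ligand level of 53.6 TPM in pup 1 and 47.4 in pup 2, Fgf8 held 37.6% and 35.4%, Fgf9 23.5% and 27.2%, and Fgf1 25.3% and 23.1%. Fgf10, the mesenchymal ligand of the Fgfr2 IIIb form, stood at 2.33 and 2.35 TPM, and Fgf20 at 1.98 and 1.61 TPM. They were the remaining detected ligands, with 4.35% and 3.69% of the ligand sum in pup 1 and 4.96% and 3.40% in pup 2.

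Close relatives stood at different levels. To judge such differences, log2(TPM + 1) of one gene minus the other was taken within each pup; the added 1 makes differences between low genes smaller. A pair was called apart where the genes' values did not overlap and the mean difference passed the 95th percentile of between-pup differences of all genes at the level of the lower gene (0.41 for genes under 1 TPM, 0.53 for 1 to 10 TPM and 0.32 for 10 to 100 TPM). Fgf9 exceeded Fgf20, its partner in progenitor maintenance, by 2.30 ± 0.16 on this scale. Fgf10 exceeded Fgf7 by 1.38 ± 0.04, with Fgf7 at 0.25 and 0.31 TPM. Fgf1 exceeded its closest relative Fgf2, which had 0.74 and 0.40 TPM on 12 and 11.7 expected counts, by 3.08 ± 0.02. With the posterior mean TPM that the authors also deposited, Fgf2 had 1.35 and 0.96 and the difference was 2.71, still apart. The difference of Fgf8 over Fgf9 was smaller, at 0.50 ± 0.20, but the values did not overlap and it passed the limit. Of the 19 pairs compared, 16 were apart. The limit measures how far a gene differs between the pups, so unrelated genes can pass it as well. The share of other gene pairs that would be apart was not computed, so the count shows nothing particular to these families.

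The other 13 secreted ligands fell below the detection level. Fgf15, Fgf3, Fgf2, Fgf18 and Fgf7 had between 0.25 and 0.75 TPM in each pup, on 11.7 to 45.7 expected counts. Fgf16, Fgf17, Fgf21, Fgf4 and Fgf5 had at most 0.10 TPM, on 0 to 5 expected counts. The last 5 stood at the depth limit, where presence and absence were not distinguishable. Fgf3, Fgf4 and Fgf15 are neighbours on chromosome 7, with gaps of 2.93 kb between Fgf3 and Fgf4 and 31.3 kb between Fgf4 and Fgf15, and none of the 3 was detected. Fgf6, a ligand of the muscle lineage, and Fgf23, the phosphate hormone of bone, lie 44.7 kb apart on chromosome 6 and had no counts. A count of 0 allows up to 3 counts, which corresponds to 0.0893 and 0.0726 TPM for Fgf6, 0.0590 and 0.0479 for Fgf23, and 0.259 and 0.211 for the short Fgf22 model. Such limits and the intervals below cover counting error only.

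Endocrine Fgf genes were not detected, while a co-receptor for one of them was abundant. Fgf15, the gut hormone that acts on the liver, had 0.65 and 0.73 TPM, Fgf21, a metabolic hormone of the liver, had 0 and 0.10, and Fgf23 had 0. Kl, the klotho co-receptor through which the kidney receives Fgf23, stood at 64.9 and 51.8 TPM. Klb, the co-receptor for Fgf15 and Fgf21, had 0.04 and 0.08 TPM on 4 and 10 expected counts. The pair difference of Kl over Klb was 5.80 ± 0.26 on the log2(TPM + 1) scale, the largest of the 19 compared. A further klotho relative, Lctl, had 0.19 and 0.23 TPM.

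Intracellular Fgf proteins are not secreted and are known as partners of sodium channels in excitable cells. Fgf13 was detected with 1.57 and 1.66 TPM, Fgf12 had 0.93 and 1.05, Fgf11 0.81 and 0.50, and Fgf14 0.05 and 0.12. Fgf13 and Fgf12 did not differ beyond the spread limit (0.39 ± 0.03 on the log2(TPM + 1) scale, against a limit of 0.41; posterior mean TPM put them apart, at -0.86 for Fgf12 minus Fgf13), whereas Fgf11 exceeded Fgf14 by 0.60 ± 0.26. Nerve markers were present at a low level in the same libraries, with Elavl4 at 10.2 and 6.81 TPM and Stmn2 at 5.28 and 5.16, and Tubb3 at 0.19 and 0.60. Their part in the intracellular Fgf levels was not tested.

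**Figure D2:**
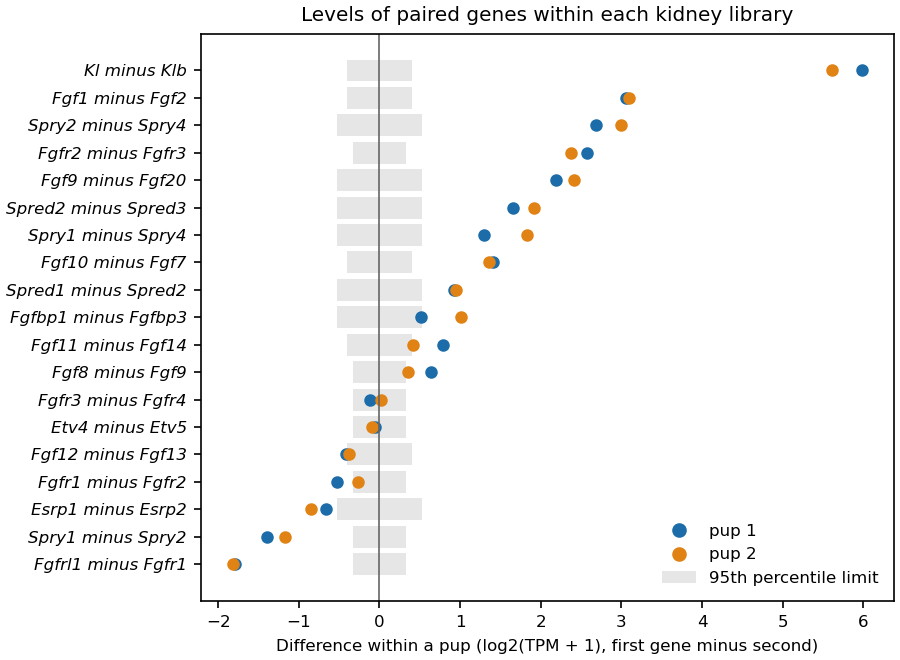
Difference between paired genes within each pup, as log2(TPM + 1) of the first gene minus the second; points are pups and grey bars show the limit, the 95th percentile of between-pup differences of all genes at that level. Kl over Klb is largest at 5.80, and the means of Fgfr3 and Fgfr4, Etv4 and Etv5, and Fgf12 and Fgf13 lie within the grey bars.

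All 4 receptor kinases were detected, in a high and a low tier. Fgfr2 (ENSMUSG00000030849.13) had 75.6 TPM in pup 1 and 65.7 in pup 2. Fgfr1 (ENSMUSG00000031565.13, chr8:25513654-25575718) had 52.1 and 54.5 TPM. Fgfr4 had 13.0 and 11.6 TPM and Fgfr3 11.9 and 11.85. The tiers did not overlap: Fgfr2 exceeded Fgfr3 by 2.47 ± 0.14 on the log2(TPM + 1) scale, while Fgfr3 and Fgfr4 differed by 0.05 ± 0.10, within the spread. As deposited, Fgfr2 held 47.6 ± 2.69% of the summed receptor TPM, Fgfr1 36.04 ± 2.66%, Fgfr4 8.31 ± 0.295% and Fgfr3 8.02 ± 0.323%. Ranks were taken by mean TPM as deposited among 26 listed receptor tyrosine kinase genes, the 4 Fgf receptors and 22 chosen by hand. Fgfr2 ranked 3 and Fgfr1 4 after Axl and Ddr1, and Fgfr4 and Fgfr3 ranked 15 and 16. The values of Fgfr2 overlapped those of Ddr1 (75.8 and 69.4 TPM), and its rank counts the transcript described next. Fgfrl1, a receptor-like protein without the kinase domain, had 14.3 and 14.7 TPM, and the difference of Fgfrl1 minus Fgfr1 was -1.81 ± 0.02 on the log2(TPM + 1) scale.

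The order of Fgfr2 over Fgfr1 depended on whether the TPM of a single annotated transcript was counted. ENSMUST00000124096.3, called the Ctbp2-led transcript below, was the leading Fgfr2 transcript in the deposited transcript tables, with 34.3% of the gene's TPM in pup 1 and 36.6% in pup 2. In the GENCODE M21 annotation it has 7 exons. The first 2, of 314 bases together, lie inside Ctbp2, the gene of a transcriptional corepressor, at chr7:133123141-133123350 and chr7:133081757-133081860, and the other 5 are exons at the 3′ end of Fgfr2, from chr7:130172817-130172939 onwards on the minus strand. Of its 2376 windows of 50 bases, 86.8% also occur in other Fgfr2 transcripts and 11.2% in transcripts of Ctbp2, which itself stood at 78.7 and 70.6 TPM. Only 48 windows (2.02%) belong to this transcript alone. Whether its reads came from such a joined RNA, from Ctbp2 or from other Fgfr2 transcripts was not tested.

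Without the Ctbp2-led transcript, an alternative chosen after seeing the data, Fgfr2 had 49.7 TPM in pup 1 and 41.7 in pup 2. Both values are below those of Fgfr1, so the order of the leading receptors turned, although the difference of 0.22 on the log2(TPM + 1) scale did not pass the limit. This alternative removes all TPM of the transcript and can only lower Fgfr2, though most of its windows also occur in other Fgfr2 transcripts. The order with its reads given to those transcripts was not tested. With that TPM removed, receptor shares were 43.3% for Fgfr1, 37.03% for Fgfr2, 9.99% for Fgfr4 and 9.65% for Fgfr3. As deposited, the difference of Fgfr1 minus Fgfr2 was -0.40 ± 0.19, at -0.53 in pup 1 and -0.27 in pup 2, the latter within the limit of 0.32. With or without the Ctbp2-led transcript, both genes stood above Fgfr3 and Fgfr4 in each pup.

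**Figure D3:**
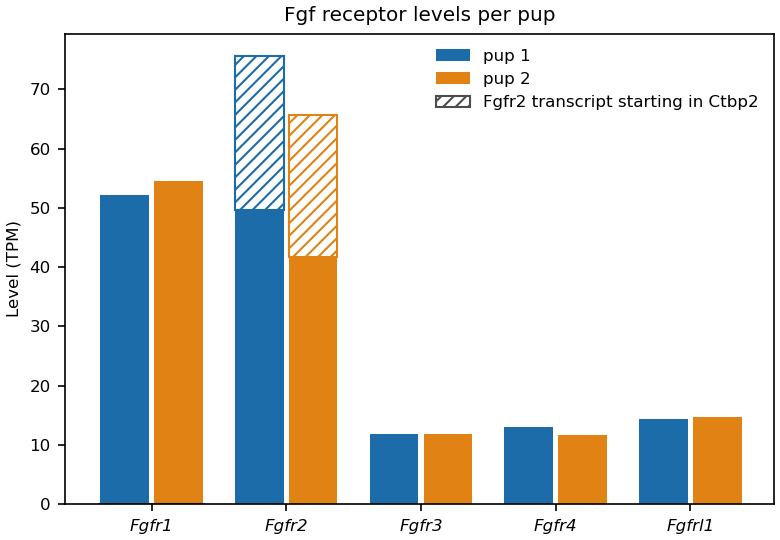
Levels of the Fgf receptors and Fgfrl1 per pup in TPM; each bar is 1 pup and the hatched part of Fgfr2 is the Ctbp2-led transcript. The solid part of Fgfr2 (49.7 and 41.7 TPM) ends below the Fgfr1 bars (52.1 and 54.5 TPM), while the whole bars end above them.

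Ligand choice by Fgfr1 to Fgfr3 depends on a pair of alternative exons, IIIb and IIIc, that encode the second part of the third immunoglobulin-like domain. IIIb forms are typical of epithelium and IIIc forms of mesenchyme. The exons were found in the M21 annotation of mm10 as coding exons of similar length that follow the same exon and do not occur together in a protein-coding transcript, the upstream one being IIIb. The Fgfr3 pair is shown because the isoform values below count transcripts by which of these exons they hold, and Fgfr3 is the receptor whose split differed most between the pups; the capitals mark the longest run of bases that the pair shares.
Fgfr3 IIIb exon, chr5:33731281-33731431, plus strand: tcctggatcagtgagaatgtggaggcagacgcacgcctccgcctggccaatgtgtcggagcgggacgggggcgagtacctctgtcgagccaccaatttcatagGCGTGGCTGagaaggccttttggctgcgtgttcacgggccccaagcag
Fgfr3 IIIc exon, chr5:33732117-33732261, plus strand: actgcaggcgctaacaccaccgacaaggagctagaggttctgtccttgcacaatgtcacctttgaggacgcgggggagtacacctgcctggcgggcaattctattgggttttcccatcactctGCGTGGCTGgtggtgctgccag

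In a global alignment the IIIb and IIIc exons of Fgfr3 were identical at 50.6% of columns, with a longest shared run of 9 bases, well under the 50-base window used to look for shared sequence.

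Fgfr1 was almost wholly of the IIIc form. Its IIIc transcripts had 48.2 TPM in pup 1 and 48.99 in pup 2, and its IIIb transcripts 0.21 and 0.43 TPM on 29.25 and 61.6 expected counts. IIIb thus made up 0.434% and 0.870% of the IIIb plus IIIc TPM, or 0.652 ± 0.308% (SD, n = 2). The authors' posterior mean TPM gave 1.46%. The main IIIb transcript, ENSMUST00000178276.3, had 29.25 and 44.95 expected counts with posterior SDs of 35.3 and 46.9, so its level was not distinguishable from 0. The leading transcript, ENSMUST00000117179.4 with 43.5% and 49.0% of the gene's TPM, holds the IIIc exon and the exon of the first immunoglobulin-like domain. The first-domain exon was looked for among coding exons only, by length. Across all Fgfr1 IIIc transcripts, those in which it was found held 63.7 ± 1.79% of the gene's TPM and the others 27.5 ± 3.58%. The others were the protein-coding ENSMUST00000119398.4, at 22.0 ± 2.92%, and the retained-intron ENSMUST00000126118.4, at 5.9% and 4.97% in pups 1 and 2. The latter has no coding bases, so whether it holds the exon was not tested.

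Fgfr2 had similar levels of both forms. IIIb transcripts had 16.6 and 14.2 TPM and IIIc transcripts 12.9 and 12.1 TPM. By TPM as deposited, IIIb was higher in both pups and made up 56.3% and 53.9% of the pair (55.1 ± 1.71%). Fgfr2 transcripts with either exon mostly lacked the first-domain exon: IIIb forms with it had 0 TPM in either pup against 21.8 ± 0.253% of the gene's TPM without it, and IIIc forms with it held 2.70 ± 1.15% against 15.04 ± 0.131% without it. Transcripts with neither alternative exon held 60.5 ± 0.765% of Fgfr2 TPM. Beside the Ctbp2-led transcript these included ENSMUST00000153166.3, annotated as a target of nonsense-mediated decay and holding the first-domain exon, at 13.1 ± 0.665%. The IIIb share therefore rests on the remaining transcripts, with 1305.75 and 1328.4 expected counts for IIIb and 1536 and 1749 for IIIc. In counts, which are not corrected for length, IIIc was the higher form in both pups. The main IIIb transcript, ENSMUST00000120187.3, was quantified at 3053 bases but has 4311 in M21, and TPM depends on that length. The main IIIc transcript, ENSMUST00000117872.3, has 4223 bases in both. Whether IIIb leads in TPM with the M21 length was not tested.

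Fgfr3 held mostly IIIc, with a wide gap between the pups. IIIb transcripts had 4.05 TPM in pup 1 and 2.61 in pup 2, and IIIc transcripts 6.13 and 7.48. IIIc was higher in both pups, and IIIb made up 39.8% and 25.9% of the pair (32.8 ± 9.84%). The split fell on 2 transcripts of nearly equal coding length. The IIIb transcript ENSMUST00000171509.4 had 34.1% and 22.0% of the gene's TPM and the IIIc transcript ENSMUST00000164207.5 23.6% and 36.3%. The estimated leading transcript thus differed between the pups. The IIIb transcript had 471.5 and 373.3 expected counts (posterior SDs 80.9 and 85.5), and the IIIc transcript 337.1 and 635.7 (85.4 and 113.7). How much of the gap between the pups is such model error was not tested. The IIIb shares of Fgfr1, Fgfr3 and Fgfr2 did not overlap over the pups, in that rising order. Few 50-base windows tell the IIIb form apart: 46 windows occur in Fgfr1 IIIb transcripts alone and 821 in Fgfr1 IIIc, 159 and 190 in Fgfr2, and 93 and 347 in Fgfr3. The shares are model estimates.

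**Figure D4:**
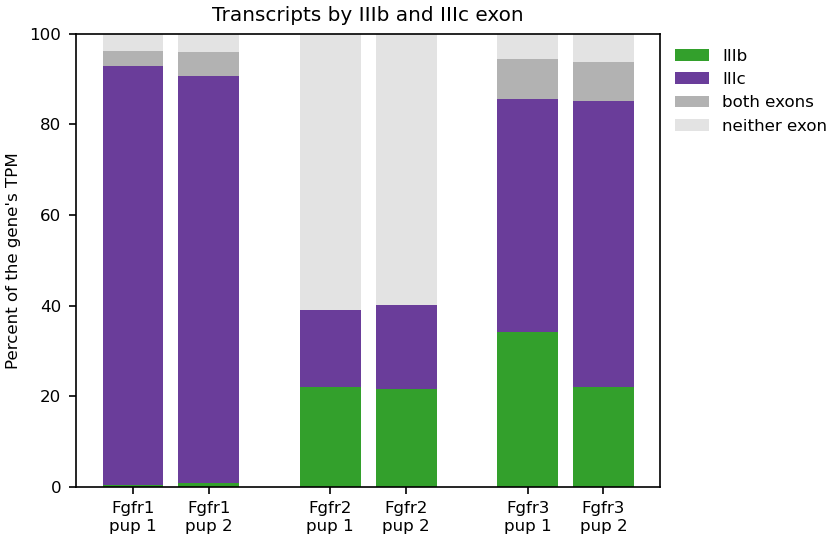
Percent of each receptor gene's TPM, per pup, held by transcripts with the IIIb exon, the IIIc exon, both or neither. Fgfr1 is nearly all IIIc, Fgfr2 has 21.8% IIIb and 17.7% IIIc beside 60.5% with neither exon, and Fgfr3 has more IIIc than IIIb in both pups.

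Genes known to regulate the choice between these exons were present. The epithelial splicing factors Esrp1 and Esrp2, which favour IIIb, had 10.6 and 8.82 TPM and 17.4 and 16.7 TPM in pups 1 and 2. Esrp2 was higher in both pups; the difference of Esrp1 minus Esrp2 was -0.76 ± 0.13 on the log2(TPM + 1) scale. Ptbp1, a general repressor of exons, had 196 and 175 TPM, and Rbfox2 12.45 and 11.7. All 4 genes of this list were detected.

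The Sprouty genes were led by Spry2. It had 70.5 and 72.7 TPM, Spry1, the brake on Ret signalling in the ureteric bud, had 26.2 and 31.7, and Spry4 10.1 and 8.21. The values of the 3 genes did not overlap. Spry2 exceeded Spry4 by 2.85 ± 0.22 on the log2(TPM + 1) scale and Spry1 exceeded Spry4 by 1.56 ± 0.37, and Spry1 minus Spry2 was -1.28 ± 0.15. Spry2 alone held 55.1% and 54.1% of the summed Sprouty and Spred TPM.

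The Spred genes, related inhibitors that act on Raf activation, fell in level from Spred1 to Spred3. Spred1 had 13.3 and 13.96 TPM, Spred2 6.54 and 6.77, and Spred3 1.40 and 1.06. Spred1 exceeded Spred2 by 0.94 ± 0.01 and Spred2 exceeded Spred3 by 1.78 ± 0.19 on the log2(TPM + 1) scale, and no values overlapped. The Fgf-binding proteins, which release ligands from the matrix, were also detected, with Fgfbp1 at 10.6 and 16.9 TPM and Fgfbp3 at 7.09 and 7.90. Fgfbp1 was higher in both pups, by 0.76 ± 0.34 on the log2(TPM + 1) scale, but in pup 1 alone the difference of 0.52 did not pass the limit.

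In 15 of the 19 detected members 1 transcript held at least 50% of the gene's TPM in both pups. Genes with a single annotated transcript pass by construction, and the share over all detected genes was not computed. Spry2, Spry4, Fgfbp1 and Fgfbp3 have 1 annotated transcript each, and the leading transcript held 97.6 ± 0.163% of TPM in Spred1, 96.8 ± 4.50% in Fgfr4, 92.7 ± 2.36% in Fgfrl1, 90.05 ± 3.46% in Fgf1 and 87.3 ± 3.30% in Fgf13. Fgf8, a gene known for splice forms that differ at the N-terminus, was spread over its 6 transcripts: the leading one, ENSMUST00000111928.3, held 27.7 ± 0.113%, and ENSMUST00000026240.9 and ENSMUST00000111927.3 held 21.7 ± 5.15% and 16.2 ± 4.99%. The Spry1 transcripts ENSMUST00000038569.3 and ENSMUST00000108109.3 held 52.6 ± 0.361% and 41.9 ± 1.70% and have the same coding length of 939 bases. In Fgf9, the transcript with the full coding sequence of 624 bases held 77.3 ± 1.72%, and ENSMUST00000165526.3, with 273 coding bases, 18.9 ± 0.431%.

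Between the pups, none of the 21 members that reached 50 expected counts in 1 pup or both differed 2-fold, the size at which 0.601% of 15150 such genes (91 genes) were called. Ratios are log2 of CPM + 0.1 after TMM scaling, pup 2 over pup 1. They ran from -0.41 for Fgf11 (60 and 51 expected counts) to 0.75 for Fgfbp1 (332 and 649), whose 95% counting interval was 0.57 to 0.96. Fgfbp1 was the only one of the 21 beyond 0.44, the 95th percentile of absolute ratios over all tested genes. The median absolute ratio was 0.16 for the members and 0.10 for all tested genes. The counting interval left out 0 for 12 of the 21, and for 40.3% of all tested genes. Among the 12 were Spry1 at 0.37 (0.28 to 0.46), Fgfr1 at 0.14 and Fgfr2 at -0.11. With 1 library per pup, an animal and its library cannot be told apart.

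**Figure D5:**
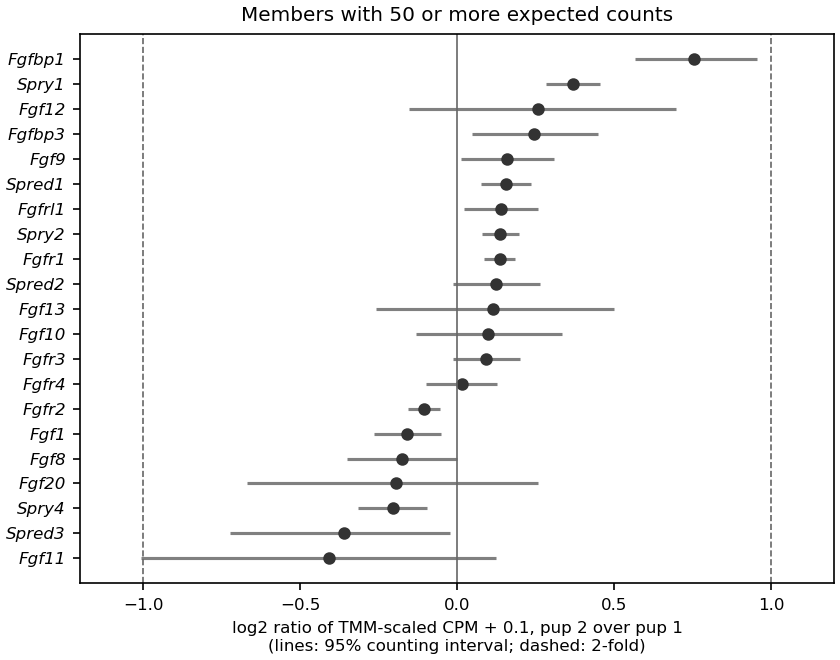
Log2 ratio of TMM-scaled CPM + 0.1 between the pups (pup 2 over pup 1) for the 21 members that reached 50 expected counts in a pup; points are ratios, lines 95% counting intervals and dashed lines 2-fold. Every point lies between the dashed lines, with Fgfbp1 highest at 0.75 and Fgf11 lowest at -0.41.

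Outside the 36 genes, the signalling chain and its outputs were present throughout. All 21 transduction genes were detected, at a list median of 40.7 ± 3.37 TPM, led by the MAP kinase kinase Map2k2 at 132 ± 0.636 and the adaptor Crk at 87.96 ± 1.65, with the Ras exchange factor Sos1 lowest at 3.38 ± 0.127. All 12 target and feedback genes were detected, at a median of 13.5 ± 0.629 TPM. The ERK phosphatase Dusp6, a standard readout of Fgf signalling, had 55.9 and 56.2 TPM, and the ETS factors Etv5 and Etv4 had 38.35 and 36.5 and 36.8 and 34.0. Etv4 and Etv5 did not differ beyond the spread (-0.08 ± 0.03 on the log2(TPM + 1) scale), and the membrane inhibitor Il17rd was lowest at 2.59 ± 0.276 TPM. These genes also answer to other receptors, and 22 of 22 other receptor tyrosine kinases on the list were detected, from Axl (76.4 and 84.9 TPM), Ddr1 and Tie1 down to Egfr (3.22 and 3.54 TPM).

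Heparan sulfate, the co-factor of Fgf binding, was represented by both carriers and enzymes. All 12 proteoglycan genes were detected, at a median of 32.4 ± 2.001 TPM. The glypican Gpc3 stood at 866 and 806 TPM, the syndecan Sdc4 at 187 and 146.5 and Gpc4 at 116 and 94.7, with Gpc2 lowest at 7.07 ± 0.679. Of 15 enzymes that build or trim the chains, 12 were detected, at a median of 10.1 ± 0.516 TPM. The polymerase subunit Ext2 had 88.8 ± 1.03 TPM and the sulfatase Sulf2 38.3 ± 1.05. Hs6st1, a sulfotransferase, had 11.3 TPM in pup 1 and 18.85 in pup 2, and Ndst4 was lowest at 0.02 and 0.08. Over all 7 lists 84 of 88 genes were detected, against 61.5% of protein-coding genes. The lists were chosen by hand with earlier results of these data known, so this high share is no finding about the pathway.

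Some member levels could be affected by overlapping genes, since the strand setting of the counting is not given in the sources used here. Exons of Fgf20 share 202 bases with Micu3, a gene on the opposite strand at 14.5 and 16.6 TPM, and exons of Fgf2 share 640 bases with Nudt6 on the opposite strand, at 10.6 and 13.2 TPM. Fgf15 shares 761 bases with the antisense gene Gm26793 (0.15 and 0.08 TPM) and Spred3 202 bases with Ggn (0.59 and 0.56 TPM). Spry1 shares 710 bases (24.4% of its exon bases) with Gm42922, and Fgfr3 998 bases (13.9%) with G630022F23Rik. Both of these other genes lie on the opposite strand and were not among the measured genes, so they have no level here. Their part in the Spry1 and Fgfr3 levels was not tested. Fgf22 shares 82 bases with Rnf126 on the opposite strand, which stood at 57.45 and 59.4 TPM, and Fgf22 had no counts. Without strand, reads in these stretches cannot be told apart. Of the 36 genes, 8 had any 50-base window in transcripts of other measured genes; the largest shares were 3.48% for Fgfr2, all of it in Ctbp2, and 1.34% for Spred2.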

How the data were processed

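Total RNA was profiled in 2 libraries, each from both kidneys of 1 pup. Per the labels, 10 ng of RNA over 200 nt were used. For each library the authors deposited a table of genes and one of transcripts. Per the file headers these hold expected counts (estimated reads, not normalized), TPM, FPKM and posterior mean versions of these, and for transcripts also their percent share within the gene. Per the submitters' processing notes the assembly was mm10 and the annotation GENCODE M4; no aligner, counter or strand setting is named (not given in the sources used here). Estimates for transcripts divide reads that fit several of them by a model.

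Symbols, exons, sequences and coordinates were taken from GENCODE M21 of the same assembly, which named 42462 of 43346 genes. All 132 member transcripts were found there, 112 with the same length. For differences between pups, expected counts were rounded, scaled with TMM in edgeR 4.0.16 (R 4.3.3) and given exact binomial intervals; DESeq2 1.42.0 size factors were an alternative. The step was tested on simulated data. Exons were aligned with Biopython 1.88, with Python 3.11.15, pandas 2.3.3, NumPy 2.4.6 and Matplotlib 3.10.9. A count of 0 allows 3 counts, or 0.0721 and 0.0614 CPM. The members, pairs and lists were chosen with earlier results of these data known. All members are named; in each pathway list the 3 highest genes and the lowest are named, except for an item that is not reported here. Spry3 was left out, since its identifier was not matched.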

Additional observations from a re-analysis of the deposited data

How the results depend on the processing

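Detection at 0.5 TPM, 2 TPM, FPKM of at least 1, posterior mean TPM or in 1 pup alone gave 16 to 22 members in place of 19 and 83 or 84 pathway genes in place of 84. The count of members differing 2-fold between the pups was 0 under all scalings and pseudocounts tried and with at least 10 counts, and 1 with no filter (Fgf4, with 5 expected counts and 0). The count of pairs apart was 15 to 17 in place of 16. In pup 2 alone the difference of Fgfr1 minus Fgfr2, -0.27, did not pass the limit. With all TPM of the Ctbp2-led transcript removed, which can only lower Fgfr2, the difference reversed to 0.22, also within the limit. Fgf12 and Fgf13 were apart in pup 1 alone. Posterior mean TPM moved the IIIb share of Fgfr1 to 1.46%. With protein-coding transcripts alone the receptor shares of Fgfr1, Fgfr2, Fgfr3 and Fgfr4 were 38.3%, 43.5%, 8.36% and 9.80%. Without the Ctbp2-led transcript the shares of Fgfr1, Fgfr2, Fgfr3 and Fgfr4 were 43.3%, 37.03%, 9.65% and 9.99%. Leaving out either pup gave IIIb shares of 0.434% to 0.870% (Fgfr1), 53.9% to 56.3% (Fgfr2) and 25.9% to 39.8% (Fgfr3).

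With 2 littermates the spread between litters was not measured. Depth limits the 15 members under 50 expected counts. No paired analysis was possible because there is 1 group and no other group whose replicate numbers could be matched.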
